A study of Mus musculus with 6 samples.

Results

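The protein part of the cytosolic ribosome was followed at the RNA level in a bone marrow stromal cell with lowered Smoothened. The genes described are those whose only symbol in the platform annotation is Rpl or Rps plus a number, with an optional letter, or Rplp0, Rplp1, Rplp2 or Rpsa. Pseudogenes and the ribosomal S6 kinase genes were left out. The rule found 63 genes among the 22296 symbols of the annotation, 42 of the large and 21 of the small ribosomal subunit. RNA came from OP9 cells, a mouse stromal line that supports blood cell culture, kept sub-confluent. One stable line carried a pLKO.1-Puro lentiviral shRNA against Smo (Smo shRNA, 3 arrays) and the other a scrambled shRNA in the same vector (control shRNA, 3 arrays). Smo encodes Smoothened, the membrane protein through which Hedgehog ligands signal. All samples were hybridised to the Affymetrix Mouse Exon 1.0 ST array, which reads a gene through many short probe sets.

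Each group is a single stable line sampled in triplicate, and the labels do not say whether triplicates were separate cultures, so a p-value here covers only sample-to-sample spread within a line, which may be technical. An effect of the Smo hairpin and any other difference between these lines cannot be told apart. Smo itself was lower in Smo shRNA cells on every array, at 11.37 ± 0.06 in Smo shRNA cells and 12.25 ± 0.03 in control shRNA cells (log2 scale, SD, n = 3 each). The difference was -0.88 (SE 0.04, limma adjusted p = 1.13e-09). Among the stromal markers, Pdgfrb, Cxcl12 and Col1a1 averaged between 12.58 and 13.30 in the 2 groups, while Lepr and Thy1 lay between 7.27 and 7.39. The measured blood, endothelial and epithelial markers lay between 7.40 and 8.68.

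Ribosomal proteins surround and stabilise the ribosomal RNA of both subunits, and a growing cell spends much of its transcription on them. Their mRNAs are among the most abundant of most cells and typically begin with a C and a run of further pyrimidines, the terminal oligopyrimidine (TOP) motif. Through that motif mTORC1, a growth-controlling kinase complex, sets how well they are translated, so their protein output can change while their mRNA does not. The genes are spread over the genome and many carry small nucleolar RNA genes in their introns. Arrays read mRNA level only.

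A pyrimidine run at the transcription start is the sequence feature the group is known for, and the start region is shown here for 9 genes on which the results turn. Each line gives 50 bases of the RefSeq promoter table (GRCm38.p6, gene strand), from 30 bases before the annotated start to 20 bases from it, with the longest run of C and T in capitals. Where the table lists several starts of a gene, the start with the longest run was taken.
Rpl7a (chr2:26910777-26910826, plus strand): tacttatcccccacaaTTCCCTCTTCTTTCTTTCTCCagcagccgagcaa
Rps10 (chr17:27635225-27635274, minus strand): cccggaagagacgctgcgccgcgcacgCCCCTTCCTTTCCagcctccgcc
Rps6 (chr4:86857348-86857397, minus strand): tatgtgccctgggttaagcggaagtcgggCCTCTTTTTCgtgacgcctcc
Rps7 (chr12:28635934-28635983, minus strand): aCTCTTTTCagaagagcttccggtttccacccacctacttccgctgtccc
Rplp2 (chr7:141447621-141447670, plus strand): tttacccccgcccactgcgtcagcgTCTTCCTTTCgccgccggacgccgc
Rpl27a (chr7:109519165-109519214, plus strand): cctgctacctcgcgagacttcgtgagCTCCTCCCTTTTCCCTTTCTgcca
Rpl13a (chr7:45128726-45128775, minus strand): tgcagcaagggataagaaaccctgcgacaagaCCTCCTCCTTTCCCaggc
Rps27 (chr3:90213629-90213678, minus strand): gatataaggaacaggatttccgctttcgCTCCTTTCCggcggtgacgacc
Rps25 (chr9:44407684-44407733, plus strand): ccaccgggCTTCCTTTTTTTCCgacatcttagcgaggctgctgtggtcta

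In 6 of these 9 genes the run spanned the annotated start. It began at base 3 of the transcript in Rpl13a, 22 bases before the start in Rps25 and 29 bases before it in Rps7. Of the 63 ribosomal protein genes, 50 were in the promoter table, and 41 of these had 1 listed start. For any gene with more starts, the longest run over its starts was counted. The number of listed starts was not compared between the sets below. A run of 8 or more C or T bases on the gene strand lay in this window in 26 of the 50 (52.0%), in 16 of 69 mitochondrial ribosomal protein genes (23.2%) and in 6182 of all 27025 genes of the table (22.9%). The search covered the gene strand only, and a run is a description of these letters. The 20 tested genes with a run had a median log2 difference of 0.01, with 3 higher and 3 lower. The 19 without a run had a median of 0.03, with none called. Of all tested genes on the arrays 21.3% were higher and 17.4% lower. The remaining 2 called genes, Rpl3 and Rplp1, were not in the promoter table.

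The annotation held 487 probe sets for the 63 genes, and 448 of them had a 6-array mean no lower than the array-wide median. A gene was tested when at least 3 of its probe sets passed, which held for 28 large and 20 small subunit genes. The other 15, of which 14 belong to the large subunit, had 1 or 2 passing probe sets and are described at the end. Rpl10, Rpl11, Rpl38, Rps26, Rps28 and Rps27a, which have known roles in the ribosome, had no probe set with a single symbol and were not analysed here. Many ribosomal protein genes have processed pseudogenes with nearly the same sequence, and whether a probe also reads such a copy was not tested. Values of different genes come from different probes and are not compared with each other.

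One array stood apart on these genes, and it has to be described before the comparison. In Smo shRNA replicate 3, 39 of the 448 probe sets (8.71%) lay more than 1 log2 unit above each of the other 5 arrays. None of the 448 did so on any of the other 5 arrays. The limit of 1 was chosen after the values were seen. The 39 probe sets belonged to 21 genes, 11 of the large and 10 of the small subunit. Their gap to the next array had a median of 1.69 and a maximum of 3.46, and the spread of the other 5 arrays over the same probe sets had a median of only 0.62.

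None of these probe sets was among the brightest. The mean of the other 5 arrays ranged over 6.32 to 11.97 in them, with a median of 8.62, and none reached 12. Of the probe sets of all other genes, 343 of 245126 (0.140%) lay above the other arrays in this way in Smo shRNA replicate 3, and 0 to 5 did so on each other array. The share was 4.64% (14 of 302) for translation factors and other TOP mRNAs, and 1.16% (8 of 689) for mitochondrial ribosomal proteins. What sets this array apart was not tested, and results are given with and without it.

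**Figure D1:**
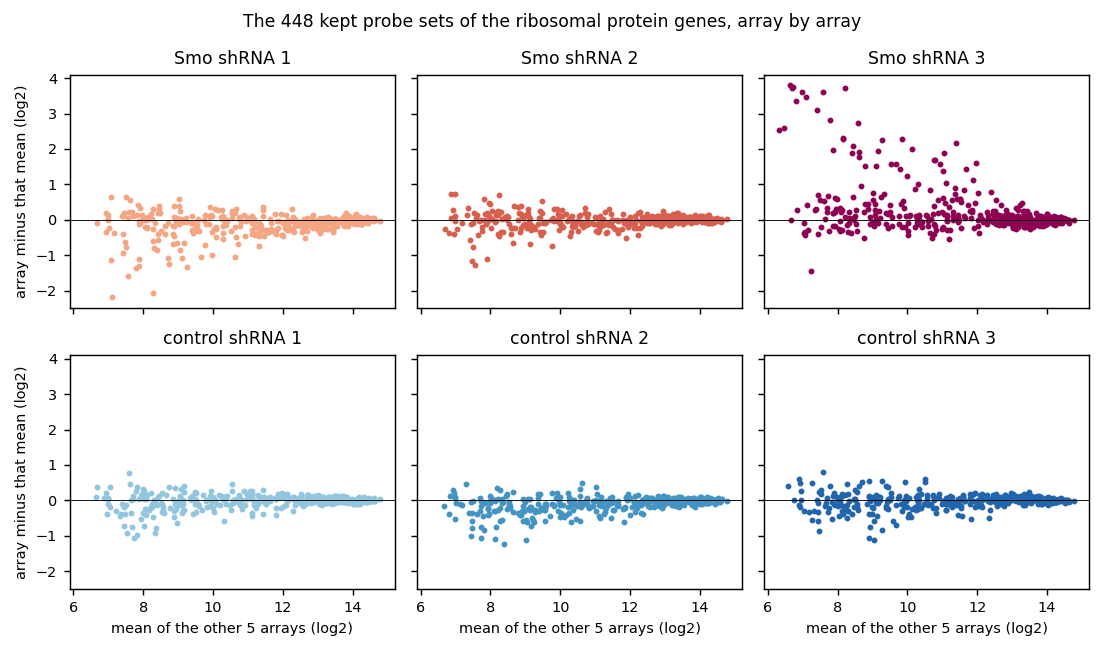
Each panel is one array and each point one of the 448 passing probe sets of the ribosomal protein genes. The horizontal axis is the mean of the other 5 arrays and the vertical axis the array's value minus that mean, both log2; only Smo shRNA 3 has a cloud of points well above 1 on the left, with the largest of them more than 3 units up.

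Rps25, a small subunit protein needed by several viral internal ribosome entry sites, held the largest gap. Its 3 dimmest probe sets read 10.47, 10.43 and 10.41 in Smo shRNA replicate 3. On the other 5 arrays they stayed between 6.01 and 7.03. Its brightest probe sets did not separate that array. Of its 16 probe sets, 4 passed the limma threshold as lower in Smo shRNA (adjusted over all probe sets), and 4 others stood above in replicate 3. At the gene level Rps25 read 11.06, 11.11 and 11.76 in Smo shRNA cells, against 11.33, 11.27 and 11.38 in control shRNA cells. Replicates 1 and 2 of Smo shRNA lay below all control arrays and replicate 3 above them, and the log2 difference was -0.02 (SE 0.13, limma adjusted p = 0.945). Without replicate 3 it was -0.24 (SE 0.05, adjusted p = 0.0134).

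**Figure D2:**
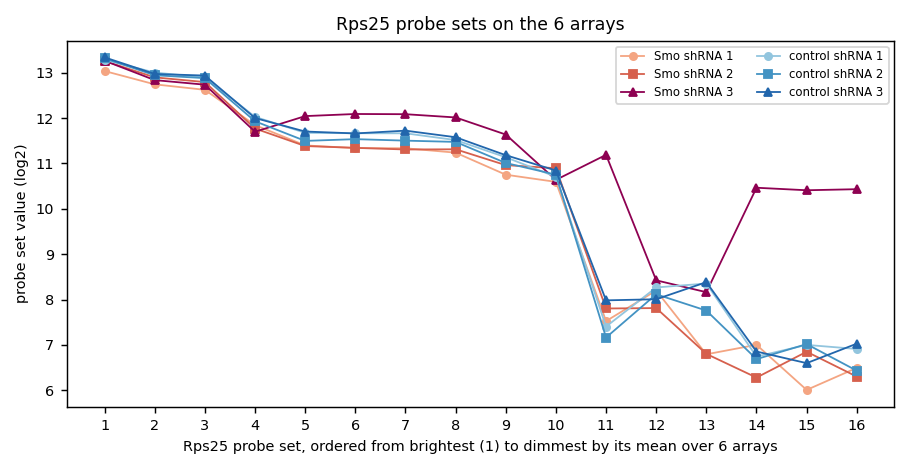
The 16 probe sets of Rps25 run from brightest to dimmest along the horizontal axis, and the vertical axis is the log2 value, with one line per array. Smo shRNA 3 follows the other arrays at the bright end and reads about 10 or more at positions 11, 14, 15 and 16, where the other 5 lie near 6 to 8.

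On these arrays, few ribosomal protein mRNAs differed between the lines, and those by little. Of the 48 tested genes, 8 passed the limma threshold (Benjamini-Hochberg adjusted p under 0.05 over all tested genes), or 16.7%, while 38.6% of all 16871 tested genes did. The calls comprised 3 genes higher in Smo shRNA cells, Rpl7a, Rps6 and Rps10 (21.3% of all genes were higher). The 5 lower genes were Rplp2, Rpl27a, Rpl3, Rpl13a and Rplp1 (17.4% of all genes were lower). Groups did not overlap between the 3 and 3 arrays in 13 of the 48, against 47.8% of all genes. The median log2 difference was 0.03 over the 48 and 0.01 over all tested genes, and the median size of a difference was 0.07 and 0.11 on the same scale. No tested member differed by 1.5-fold, and 2 (Rpl7a and Rps27) differed by 1.2-fold or more. Without Smo shRNA replicate 1 both passed 1.5-fold, at log2 differences of 0.78 for Rpl7a and 1.01 for Rps27 (limma adjusted p = 0.0311 and 0.269). Of the 448 passing probe sets, 64 had a level of 14 or over. There the differences of all other genes were small too, with quartiles of -0.04 and 0.04. Without probe sets over 14, Rpl7a and Rps6 were called higher and Rpl27a, Rpl3, Rpl4 and Rplp2 lower. In that fit 38.6% of all genes were called. Whether bright probe sets understate a difference was not tested. Fewer cells of a kind and less RNA per cell cannot be told apart in bulk RNA.

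Bright genes give narrow errors, so the members were also set beside all genes in the same range of level, above 12 or not. Levels were not matched within a range. Over 12, the median level was 13.18 for members and 12.53 for all genes. Of the probe sets of all other genes, 27.8% were higher and 22.3% lower from 12 to 14. At 14 and over these shares were 7.34% and 11.7%. Of the 26 members with a mean over 12, 6 were called (23.1%), against 775 of 1231 tested genes in that range (63.0%). Of the 22 dimmer members 2 were called (9.09%), against 36.7% of all genes at 12 or less. The 95% interval of the difference lay within 1.2-fold either way for 38 of the 48 and within 1.5-fold for 46, the exceptions being Rpl7a (0.19 to 0.97, log2) and Rps27 (-0.58 to 1.45). Of the 26 bright members 25 had intervals within 1.2-fold, with Rplp2 (-0.27 to -0.09) the exception.

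Without Smo shRNA replicate 3, where 30.8% of all genes were called (16.1% higher and 14.7% lower), the count was 0 higher and 3 lower, namely Rplp2, Rps21 (-0.15, limma adjusted p = 0.0378) and Rps25, and the smallest adjusted p of a gene above 0 was 0.111 (Rpl7a). The median difference was then 0.00, with 24 genes above 0, 23 below and 1 at 0 to within 1e-09, where all arrays gave 30 above and 18 below. In the 6 fits that leave out 1 array each, 28.5% to 32.7% of all genes passed. No called member passed in more than 2 of them. Rpl27a passed without Smo shRNA replicate 1 and without control shRNA replicate 2, and Rplp2 without Smo shRNA replicate 2 and without Smo shRNA replicate 3. Rpl7a and Rps10 passed only without Smo shRNA replicate 1, Rpl3 only without Smo shRNA replicate 2, Rplp1 only without control shRNA replicate 2, Rps6 only without control shRNA replicate 3, and Rpl13a in none. Without control shRNA replicate 1 no member passed the limma threshold, while 28.5% of all genes did.

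**Figure D3:**
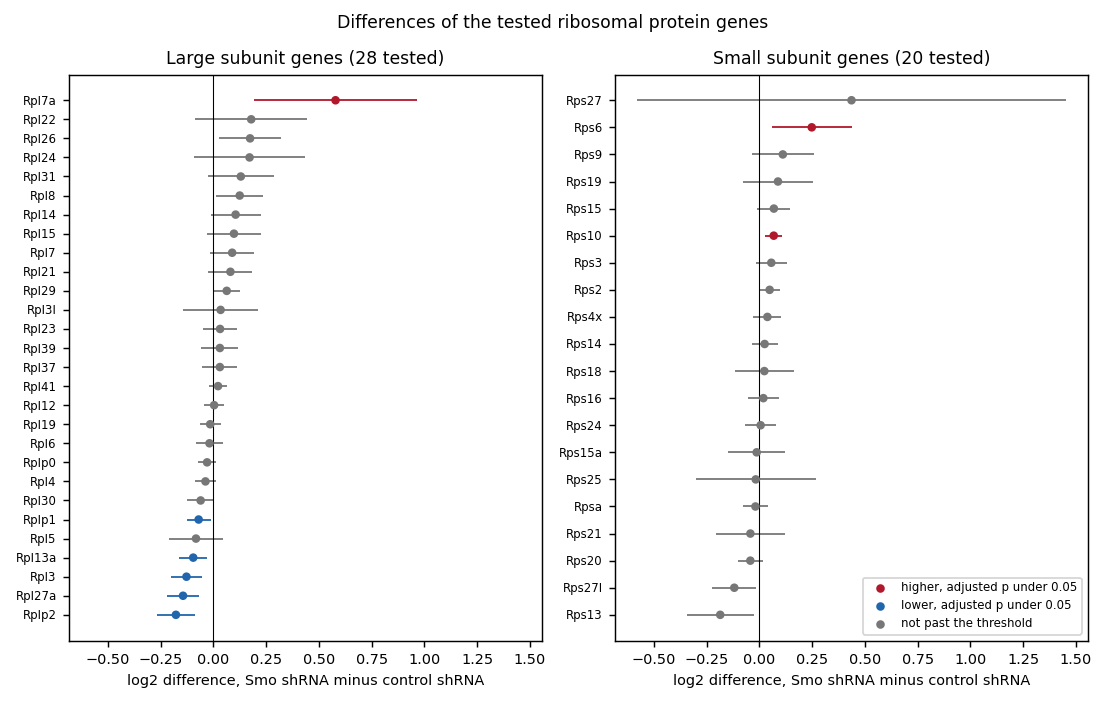
Points are the log2 difference, Smo shRNA minus control shRNA, of the 28 tested large subunit genes and the 20 tested small subunit genes, with 95% intervals from limma (n = 3 arrays in each group). Intervals of 38 genes lie within 1.2-fold, and Rps27 has by far the widest, from -0.58 to 1.45.

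The subunits were set against each other. As called by limma, the large subunit had 1 gene higher (3.57%) and 5 lower (17.9%) of 28. The small subunit had 2 higher and none lower of 20. Of all tested genes 21.3% were higher and 17.4% lower. Of the small subunit genes with a negative difference, Rps13 and Rps27l had an unadjusted limma p under 0.05. The median differences were 0.03 for the large and 0.02 for the small subunit. Without Smo shRNA replicate 3, no gene of either subunit was called higher. The lower calls were then Rplp2 in the large subunit and Rps21 and Rps25 in the small subunit. In that fit 16.1% of all genes were higher and 14.7% lower. Each gene's deviation from its control mean had, on the Smo shRNA arrays, a median of -0.01, 0.02 and 0.05 over large subunit genes and of -0.02, 0.03 and 0.07 over small subunit genes. On the control shRNA arrays these medians were 0.01, -0.03 and 0.03 for the large and 0.02, -0.04 and 0.02 for the small subunit. The ranges of the lines overlapped. No test over the members was made.

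Rplp2, a protein of the acidic stalk, had the most negative difference of the called genes. The stalk is the flexible arm of the large subunit that recruits and activates the translation GTPases, and it is built from Rplp0 with pairs of Rplp1 and Rplp2. Rplp2 read 12.90, 12.98 and 12.77 in Smo shRNA cells, against 13.07, 13.03 and 13.08 in control shRNA cells. The groups did not overlap, and the log2 difference was -0.18 (SE 0.04, limma adjusted p = 0.0032). It held without Smo shRNA replicate 3, at -0.13 (adjusted p = 0.0314). Of its 3 probe sets, 2 were lower, and the dimmer of these differed more, at 10.18, 10.53 and 10.27 in Smo shRNA cells, against 10.80, 10.68 and 11.03 in control shRNA cells.

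Rplp1, its partner, read 13.36, 13.42 and 13.42 in Smo shRNA cells, against 13.47, 13.43 and 13.52 in control shRNA cells. The lowest control array came within 0.01 of the highest Smo shRNA array, and the difference was -0.07 (SE 0.03, limma adjusted p = 0.0481), just under the threshold. Without replicate 3 the adjusted p was 0.164, and with probe sets averaged the difference was -0.003 (adjusted p = 0.983). The call held in 2 of 10 other settings that kept all arrays. Rplp0, the scaffold of the stalk, differed by -0.03 (95% interval -0.07 to 0.01), and by 0.05 when probe sets were averaged. Rpl12, which sits at the stalk base, differed by 0.00 (-0.05 to 0.05).

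Rpl27a, a large subunit protein, had the second most negative difference among the called genes. It read 12.48, 12.46 and 12.38 in Smo shRNA cells, against 12.64, 12.53 and 12.58 in control shRNA cells. No array overlapped, and the log2 difference was -0.14 (SE 0.04, limma adjusted p = 0.0048). All 3 of its probe sets pointed down, and without replicate 3 the difference was -0.10 (adjusted p = 0.0618).

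Rpl3 reaches with one loop to the peptidyl transferase centre. It read 13.29, 13.39 and 13.25 in Smo shRNA cells, against 13.46, 13.37 and 13.48 in control shRNA cells. One Smo shRNA array lay above the lowest control array, and the log2 difference was -0.13 (SE 0.03, limma adjusted p = 0.0093). Without replicate 3 it was -0.10 (adjusted p = 0.125). Of its 24 probe sets, 5 were lower and none higher. Its muscle paralog Rpl3l read about 8 and differed by 0.03 (95% interval -0.15 to 0.21).

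Rpl13a also acts outside the ribosome, in the GAIT complex that silences inflammatory mRNAs. It read 12.59, 12.67 and 12.68 in Smo shRNA cells, against 12.73, 12.71 and 12.77 in control shRNA cells. The groups did not overlap, and the difference was -0.10 (SE 0.03, limma adjusted p = 0.023), but no leave-one-out fit kept the call, and without replicate 3 the adjusted p was 0.0511. Of its 17 probe sets 2 were lower. One of these read 10.04, 10.45 and 10.19 in Smo shRNA cells, against 10.99, 10.88 and 11.11 in control shRNA cells, a difference of -0.77, the most negative of the 17.

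Rpl7a had the largest difference of the tested members. It is a large subunit protein whose gene lies in the surfeit cluster in mouse. It read 9.61, 9.91 and 10.65 in Smo shRNA cells, against 9.53, 9.51 and 9.40 in control shRNA cells. The groups did not overlap, and Smo shRNA replicate 3 was far above the other arrays. The log2 difference was 0.58 (SE 0.18, limma adjusted p = 0.0193), and 0.27 (SE 0.10, adjusted p = 0.111) without that array. Its 2 brightest probe sets were both higher, by 0.14 and 0.31, and its 2 dimmest, with differences of 0.90 and 0.85, were among the 39 that stood apart in replicate 3.

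Rps6, the small subunit protein phosphorylated by S6 kinase when mTORC1 is active, read 8.98, 8.95 and 9.17 in Smo shRNA cells, against 8.71, 8.66 and 8.98 in control shRNA cells. The highest control array reached into the Smo shRNA range. The log2 difference was 0.25 (SE 0.09, limma adjusted p = 0.0396), and 0.17 (adjusted p = 0.269) without replicate 3. One of its 3 probe sets was higher, at 10.29, 10.10 and 10.41 in Smo shRNA cells, against 9.70, 9.67 and 9.66 in control shRNA cells.

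Rps10, near the mRNA entry channel and a target of ubiquitination at collided ribosomes, read 14.05, 14.08 and 14.11 in Smo shRNA cells, against 14.02, 14.01 and 14.01 in control shRNA cells. The arrays did not overlap, and the log2 difference was 0.07 (SE 0.02, limma adjusted p = 0.0111). Without replicate 3 it was 0.04 (adjusted p = 0.359). The call held in 4 of 10 other settings that kept all arrays and was lost without probe sets over 14. Of its 10 probe sets 2 were higher, and 1 was among the 39 that stood apart in replicate 3.

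**Figure D4:**
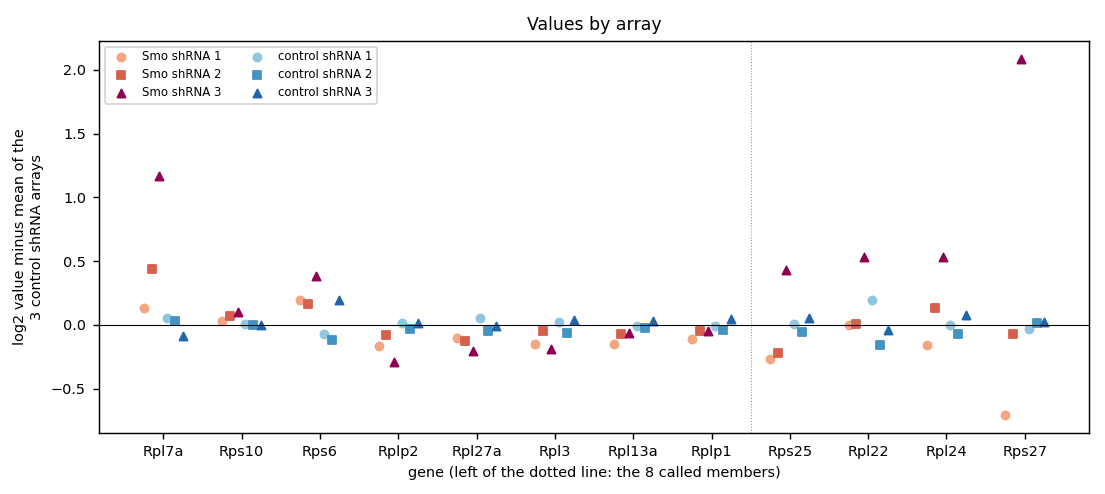
Log2 values of 12 genes on each array, minus the mean of the 3 control shRNA arrays; the 8 called genes are left of the dotted line and Rps25, Rpl22, Rpl24 and Rps27 right of it. In Rpl7a and in the 4 genes on the right, Smo shRNA 3 (dark triangles) lies far above Smo shRNA 1 and 2.

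The other genes with known special roles did not pass the threshold. At the mRNA entry channel, Rps2 differed by 0.05 (95% interval -0.00 to 0.10), Rps3, which also acts in DNA repair, by 0.06 (-0.02 to 0.13), and Rps20 by -0.04 (-0.10 to 0.02). At the mRNA exit, Rps14 differed by 0.02 (-0.04 to 0.09). Rps19, the gene most often mutated in Diamond-Blackfan anaemia in human, differed by 0.09 (-0.08 to 0.25). Rpsa, also known as the laminin receptor, differed by -0.02 (-0.08 to 0.04).

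Around the exit of the peptide tunnel, Rpl19 differed by -0.02 (-0.07 to 0.03) and Rpl31 by 0.13 (-0.03 to 0.29). Rpl26, which regulates p53 translation, differed by 0.17 (0.03 to 0.32, limma adjusted p = 0.059). One of its 4 probe sets was higher, at 9.63, 9.39 and 9.77 in Smo shRNA cells, against 8.91, 8.68 and 8.44 in control shRNA cells, and the other 3 were not called. Rpl5, which with 5S RNA can bind Mdm2, differed by -0.08 (-0.21 to 0.04).

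Rpl22, a protein with a role in lymphocyte development, read 9.74, 9.75 and 10.28 in Smo shRNA cells, against 9.94, 9.59 and 9.71 in control shRNA cells. Its difference of 0.18 came to -0.01 without Smo shRNA replicate 3. Rpl24, whose loss causes the Belly spot and tail mouse, read 9.85, 10.14 and 10.54 in Smo shRNA cells, against 9.93 to 10.08 in control shRNA cells, and its difference of 0.17 came to -0.02 without that array. In Rpl22 replicate 3 alone lay above all control arrays, and in Rpl24 replicates 2 and 3 did.

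The X-linked members moved little. Rps4x differed by 0.04 (95% interval -0.03 to 0.10) and Rpl39 by 0.03 (-0.06 to 0.12). Rps27 read 7.64, 8.27 and 10.44 in Smo shRNA cells, against 8.32, 8.36 and 8.37 in control shRNA cells. Its difference of 0.44 (SE 0.47) turned to -0.39 (adjusted p = 0.169) without replicate 3, and its brightest probe set differed by 0.00. The 3 probe sets of Rps27 differed by 0.00 to 0.37 with all arrays, so none reached the gene value. Its paralog Rps27l, a p53 target in human cells, read 11.83, 12.01 and 12.01 in Smo shRNA cells, against 12.11, 12.09 and 12.02 in control shRNA cells, a difference of -0.12 (limma adjusted p = 0.067). Rps13, a small subunit protein, read 8.63, 8.54 and 8.61 in Smo shRNA cells, against 8.72, 8.69 and 8.92 in control shRNA cells. Its groups did not overlap, and its difference of -0.19 was the most negative of the tested members (adjusted p = 0.062).

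Single probe sets told much the same. Of the 448, 21 were higher (4.69%) and 22 lower (4.91%) by limma, against 17.5% and 12.4% of all 245574 passing probe sets. Without Smo shRNA replicate 3, 15 were higher (3.35%) and 33 lower (7.37%), against 15.1% and 12.2% of all passing probe sets. The dim ones leaned up. Below a level of 8, 36 probe sets had a median difference of 0.18 with all arrays and 0.01 without Smo shRNA replicate 3, and from 8 to 10, 81 had 0.10 and 0.01. From 10 to 12, 84 had 0.02 and -0.05. From 12 to 14, 183 had -0.01 and -0.02, and at 14 and over 64 had 0.00 in both. Probe sets of all other genes had medians between 0.00 and 0.04 in these ranges.

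Among the 15 genes with 1 or 2 passing probe sets, a fit that accepts any number gave 2 calls (31.3% of all genes were called in that fit), with differences of all 15 from -0.11 to 0.47. Rps7, a small subunit protein that binds Mdm2, read 10.93, 10.76 and 10.91 in Smo shRNA cells, against 10.52, 10.23 and 10.45 in control shRNA cells. The arrays did not overlap, both of its probe sets were higher, and the difference was 0.47 (SE 0.08, limma adjusted p = 0.001). Its brighter probe set read 12.57, 12.50 and 12.50 in Smo shRNA cells, against 12.21, 12.01 and 12.10 in control shRNA cells, and replicate 3 did not stand apart there. Rpl32 differed by 0.05 (adjusted p = 0.033). Rpl35, a tunnel exit protein, had 0.27 (adjusted p = 0.17).

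Small nucleolar RNA genes, which guide modification of ribosomal RNA, lay inside 24 of the 63 genes (38.1%) and inside 372 of 21900 protein-coding genes of the RefSeq table (1.70%). The 20 tested hosts had a median difference of -0.02, with 1 higher and 4 lower, and the 28 other tested genes 0.07, with 2 higher and 1 lower. Among all tested genes, 21.3% were higher and 17.4% lower. The hosts were brighter, with a median level of 12.71 against 11.25. Dim probe sets of the members leaned up with all arrays and not without Smo shRNA replicate 3. The host comparison used all arrays, and whether it reflects level or that array was not tested. The members lay on 18 chromosomes, 10 of them on chromosome 7.

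The neighbours of these genes in translation were followed with 4 companion lists. Of ribosomal proteins outside the naming rule, Rpl7l1 was higher by 0.23 and by 0.21 without replicate 3. Rpl22l1, the paralog of Rpl22, had a difference of 0.64 (limma adjusted p = 0.136), which was 0.10 without replicate 3, and 4 of its 5 probe sets stood apart on that array. Fau, Rack1 and Rpl36al were not tested.

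Translation factors and other TOP mRNAs had 4 genes higher (23.5%) and 3 lower (17.6%) of 17, with a median of 0.01. These shares were near the 21.3% and 17.4% of all genes. Without replicate 3, 1 was higher and 3 lower, where 16.1% and 14.7% of all genes were. Eif3e (-0.19), Btf3 (-0.13) and Vim (-0.08) were lower and Npm1 (0.14) higher. Of the mTORC1 list, 5 were higher (31.2%) and 6 lower (37.5%) of 16, against 21.3% and 17.4% of all genes. Without replicate 3, 5 were higher and 5 lower. Rptor, the mTORC1 scaffold, was higher by 0.49 and Larp4 by 0.32. Deptor, an mTOR inhibitor, had -0.29 and Pdcd4, a repressor of translation that S6 kinase marks for degradation, -0.43. The S6 kinase genes Rps6kb1 (0.30) and Rps6kb2 (-0.26) were called in opposite directions. Larp1 (0.31) and Eif4e (0.23) were also higher, and Rheb (-0.20), Mlst8 (-0.19) and Akt1s1 (-0.17) lower. Activity of mTORC1 was not measured. Rptor, Larp4, Deptor and Pdcd4, and Eif3e, Btf3 and Vim, kept their calls without replicate 3, and Npm1 did not (limma adjusted p = 0.0565). The difference of Vim moved to -1.41 without probe sets over 14 and to -0.55 with probe sets averaged, and its call was lost in 5 of 16 settings.

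The mitochondrial ribosomal proteins, a separate set of nuclear genes, gave 35 higher (46.7%) and 5 lower (6.67%) of 75. Of all tested genes 21.3% were higher and 17.4% lower. The median log2 difference of the 75 was 0.14. Without replicate 3 they gave 22 higher and 4 lower with a median of 0.11. In that fit 16.1% of all genes were higher and 14.7% lower. Mrpl47 (0.68), Mrps22 (0.59), Mrpl38 (0.48) and Mrps27 (0.42) were among the higher. With all arrays, the cytosolic members had 3 higher (6.25%) and 5 lower (10.4%) of 48. The difference between the lists was not tested.

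**Figure D5:**
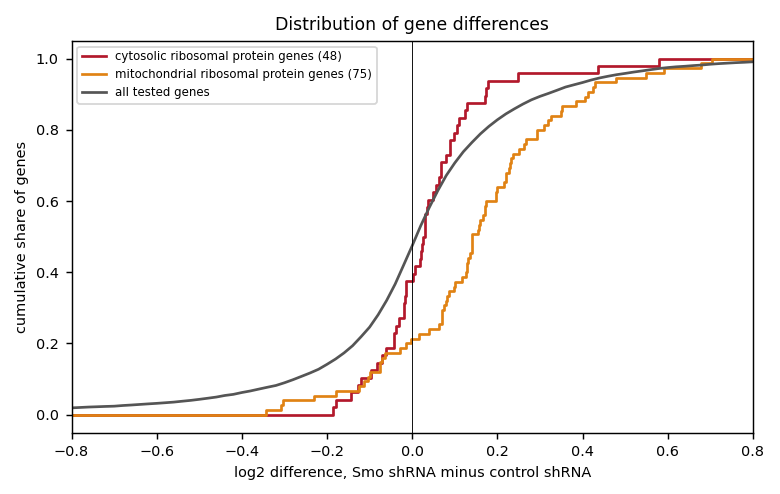
Cumulative share of genes (vertical) by log2 difference, Smo shRNA minus control shRNA (horizontal), for the 48 cytosolic and 75 mitochondrial ribosomal protein genes and all tested genes. The cytosolic curve is steep around 0, with a median of 0.03, and the mitochondrial curve lies to the right of it, with a median of 0.14.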

How the data were processed

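Per the labels, biotin-labelled total RNA of 3 Smo shRNA and 3 control shRNA samples was hybridised to exon arrays. The authors deposited 1256831 probe set values, which are log2 values as read from their range (0 to 15.14); array medians lay between 6.56 and 6.59. Which summary and normalisation were used is not given in the sources here. The 20744 rows at 0 on every array had no symbol. Names came from the platform annotation; 4224 of 22296 symbols were updated through RefSeq (GRCm38.p6).

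Probe sets with 1 symbol and a 6-array mean of at least the median (6.56) were kept, 245574 in all. Genes with 3 or more were joined by Tukey median polish and tested with limma 3.58.1 (R 4.3.3; lmFit, eBayes with trend, two-sided, Benjamini-Hochberg threshold 0.05, no replicate block). The calculation was tested on simulated data. No array pair shared more than 0.0237% of values. The number of arrays limits the precision. The members and lists were chosen with earlier results of these data known. Named genes are the non-overlapping called members with the largest differences, the role genes, the listed ribosomal proteins outside the rule and up to 4 genes of each other list; other genes were chosen after their values were seen. Alternatives covered the filter, summary, scaling, variance trend, block and each array.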

Additional observations from a re-analysis of the deposited data

How the results depend on the processing

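Each fit that left out one array gave 0 to 4 members higher and 0 to 3 lower, with 0 to 3 higher and 0 to 2 lower in the large subunit and 0 to 1 higher and 0 to 2 lower in the small; the medians ran from 0.00 to 0.05 over all members, 0.01 to 0.03 over the large and -0.00 to 0.05 over the small subunit. In these fits Rpsa ranged from -0.037 to 0.0056, Rpl3l from -0.060 to 0.090, Rpl39 from -0.030 to 0.085, Rpl12 from -0.011 to 0.019, Rpl19 from -0.020 to 0.0036, Rps14 from -0.0026 to 0.051, Rpl22 from -0.0059 to 0.27, Rpl24 from -0.023 to 0.34 and Rps27 from -0.39 to 1.01. Of all genes, 28.5% to 32.7% were called in these fits. With no trend in the variance, 0 members were higher and 1 lower (large 0 and 1, small 0 higher), and 35.7% of all genes were called. That share was 31.6% with no filter on dim probe sets and 48.8% with a stricter one. It was 38.6% without probe sets over 14, 38.2% with probe sets averaged and 44.0% with at least 5 probe sets. After quantile normalization it was 41.2%, with arrays centred on their median 40.0% and with the replicate block 41.0%. The small subunit had 1 gene higher with no filter on dim probe sets, with a stricter one, without probe sets over 14, with at least 5 probe sets and with arrays centred on their median. It had 1 lower with the stricter filter, with probe sets averaged, with at least 5 probe sets, with centred arrays and with the replicate block, and 2 lower after quantile normalization. Averaging probe sets gave 5 members higher (large 3 higher, 3 lower), with Rplp0 at 0.053 and Rpsa at 0.032; at least 5 probe sets gave 3 lower in the large subunit, the stricter filter 2 higher there, and centring put Rpl12 at -0.00096. The replicate block gave 4 higher and 5 lower, with 2 higher in the large subunit. Same-numbered arrays correlated in their deviations at 0.08, 0.10 and 0.39. The labels do not say whether such arrays are pairs, and the main fit did not treat them as pairs. The causes of these changes were not tested. Only the genes named by the rule given above were followed through the settings, and those of them not mentioned here kept their direction in all. Genes chosen after their values were seen, such as Rps13, Rps21 and Rps25, were not followed in this way.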
